A study of Caenorhabditis elegans with 4 samples.

Results

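The nuclear-encoded genes of the mitochondrial respiratory chain were described in whole Caenorhabditis elegans grown with or without ketamine. Members were the rows of the gene count table whose WormBase symbol is one of 37 named subunits, and all 37 of 37 were found among 46643 rows. They comprised 8 genes of complex I, 4 of complex II, 7 of complex III, 2 cytochrome c genes, 7 genes of complex IV and 9 of complex V. The members were listed by name and complex, with earlier results of these data known. All animals were wild type (N2), fed E. coli OP50 on agar plates, grown at 25 °C from synchronised first-stage larvae and collected as whole animals at adult day 1. The 2 ketamine libraries came from plates with 2.5 mM ketamine, an anaesthetic that blocks NMDA receptors, and the 2 control libraries came from animals given M9 buffer as vehicle. Each library holds RNA of many animals and of all tissues.

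The respiratory chain sits in the inner mitochondrial membrane. Complexes I and II pass electrons from NADH and succinate to ubiquinone, complex III passes them on to cytochrome c, and complex IV passes them to oxygen. The proton gradient built by complexes I, III and IV drives ATP synthesis by complex V. Complexes I, III, IV and V also contain subunits encoded by the mitochondrial genome, so nuclear and mitochondrial transcripts have to be supplied together, whereas complex II is wholly nuclear.

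Total counts per library lay between 29192110 and 43419202, and 15793 genes that reached 10 counts in 2 or more libraries were tested, all 37 members among them. Control 1 stood apart from the other 3 libraries. Over all genes tested, log2 CPM (counts relative to the library's total, scaled by the TMM method) correlated between control 1 and control 2 with r = 0.962, and between the 2 ketamine libraries with r = 0.988. Over the 37 members the same coefficients were 0.849 and 0.998, and control 2 correlated with the ketamine libraries at 0.996 and 0.995. These are descriptions across genes, which are not independent replicates. Transcripts of the mitochondrial genome took 3.55% of the counts in control 1 and between 0.966% and 1.18% in the other libraries. Counts and medians of the members are therefore given with and without control 1. Nothing in the labels says that the libraries came from separate cultures, so p-values measure only the spread between these samples, which may be technical.

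Ketamine against control, all 4 libraries. With both controls in the fit, no respiratory chain gene passed the test. In the quasi-likelihood fit of edgeR, with p adjusted over all genes by the Benjamini-Hochberg method, 0 of 37 members were lower and 0 were higher at an adjusted p under 0.05 and a change of at least 2-fold, against 0% and 0.095% of all genes tested. Even at an unadjusted p under 0.05, 0 members were lower and 0 were higher, where 3.32% and 2.77% of all genes were, and DESeq2 gave 0 in both directions by the same unadjusted threshold. The lowest adjusted p of any member in the edgeR fit was 0.748. The median log2 fold change of the members was 0.02 (all genes tested, -0.01), ranging from -0.82 for cyc-2.2 to 0.84 for cox-7C. Members lay on both sides of 0, 16 below and 21 above, where 7970 and 7823 of all genes tested did.

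Where the ketamine libraries lay relative to the controls. For 25 of the 37 members both ketamine libraries lay between control 1 and control 2, whereas 27.3% of all genes did. Among these were all 4 genes of complex II, all 7 of complex IV and 8 of the 9 of complex V, but only 2 of 8 in complex I. Both ketamine libraries lay below both controls for 8 members, against 20.6% of all genes, a share close to that background. These were nuo-1, nuo-2, nuo-4 and lpd-5 of complex I, cyc-1, isp-1 and ucr-11 of complex III, and the minor cytochrome c gene cyc-2.2. Only ucr-2.3 of complex III lay above both controls in both ketamine libraries, where 23.1% of all genes did. The 2 controls were further apart than the 2 ketamine libraries for 35 members (75.4% of all genes), and further apart than control 2 and the ketamine mean for 31 (70.4%). The median absolute difference over the members was 0.53 between the controls, 0.17 between control 2 and either ketamine library and 0.044 between the ketamine libraries, all in log2 CPM.

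**Figure D1:**
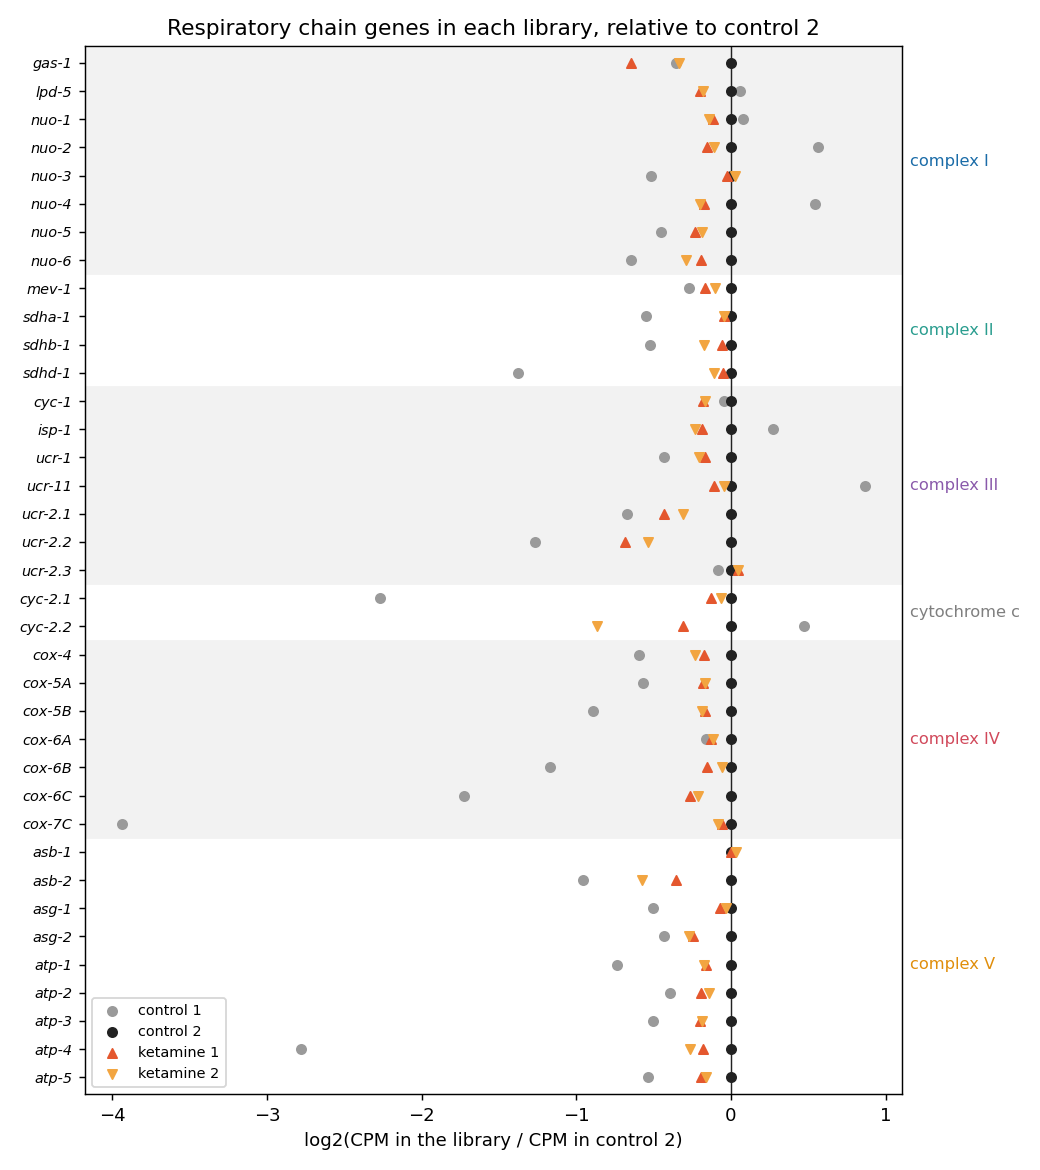
Each row is 1 of the 37 genes, grouped by complex, and the x axis is log2 of its CPM in a library divided by its CPM in control 2. Grey circles are control 1, black circles control 2 (0 by construction) and triangles the 2 ketamine libraries. The ketamine triangles lie close together and mostly a little left of 0, and control 1 ranges from far left (cox-7C) to the right of 0 (ucr-11).

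Ketamine against control 2 alone. When control 1 was left out, the members moved in 1 direction. Of the 37 genes, 36 had a log2 fold change below 0, and ucr-2.3 had 0.02. Of all 15793 genes tested, 8017 were below 0 in this fit. The median was -0.20, against -0.01 for all genes tested. Both ketamine libraries lay below control 2 for 34 members (36.5% of all genes), the exceptions being nuo-3, ucr-2.3 and asb-1. At an unadjusted p under 0.05, 25 members were lower and 0 higher, with 9.23% and 8.25% of all genes as background. At an adjusted p under 0.05, 3 members fell, namely ucr-2.1, ucr-2.2 and asb-2 (1.87% of all genes), and 0 passed with a fall of at least 2-fold (0.291%). Scaled by library totals instead of TMM factors, only ucr-2.2 of these 3 passed (log2 fold change -0.58, edgeR adjusted p = 0.0285), and 19 members were lower at an unadjusted p under 0.05. With 1 control left, this fit assumes that the lone library varies as the ketamine libraries do, and no member's change exceeded a log2 size of 0.64.

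Ketamine against control 1 alone. Leaving out control 2 instead turned the direction for most members. At an unadjusted p under 0.05, 24 members were higher and 8 lower, against 27.2% and 22.4% of all genes, and the median log2 fold change was 0.31. At an adjusted p under 0.05 and at least 2-fold, 6 members rose (sdhd-1, cyc-2.1, cox-6B, cox-6C, cox-7C and atp-4, with 10.9% of all genes as background) and cyc-2.2 fell (4.29%). For most members the direction of the ketamine difference thus depended on which control library it was measured against. The 9 members below 0 without control 2, cyc-2.2 among them, were also below 0 without control 1. The gene ucr-2.3 was above 0 in both fits. The 3 fits share their ketamine libraries, so they are not independent of each other. For a single gene, an exact two-sided permutation test of 2 libraries against 2 cannot give a p below 0.333.

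**Figure D2:**
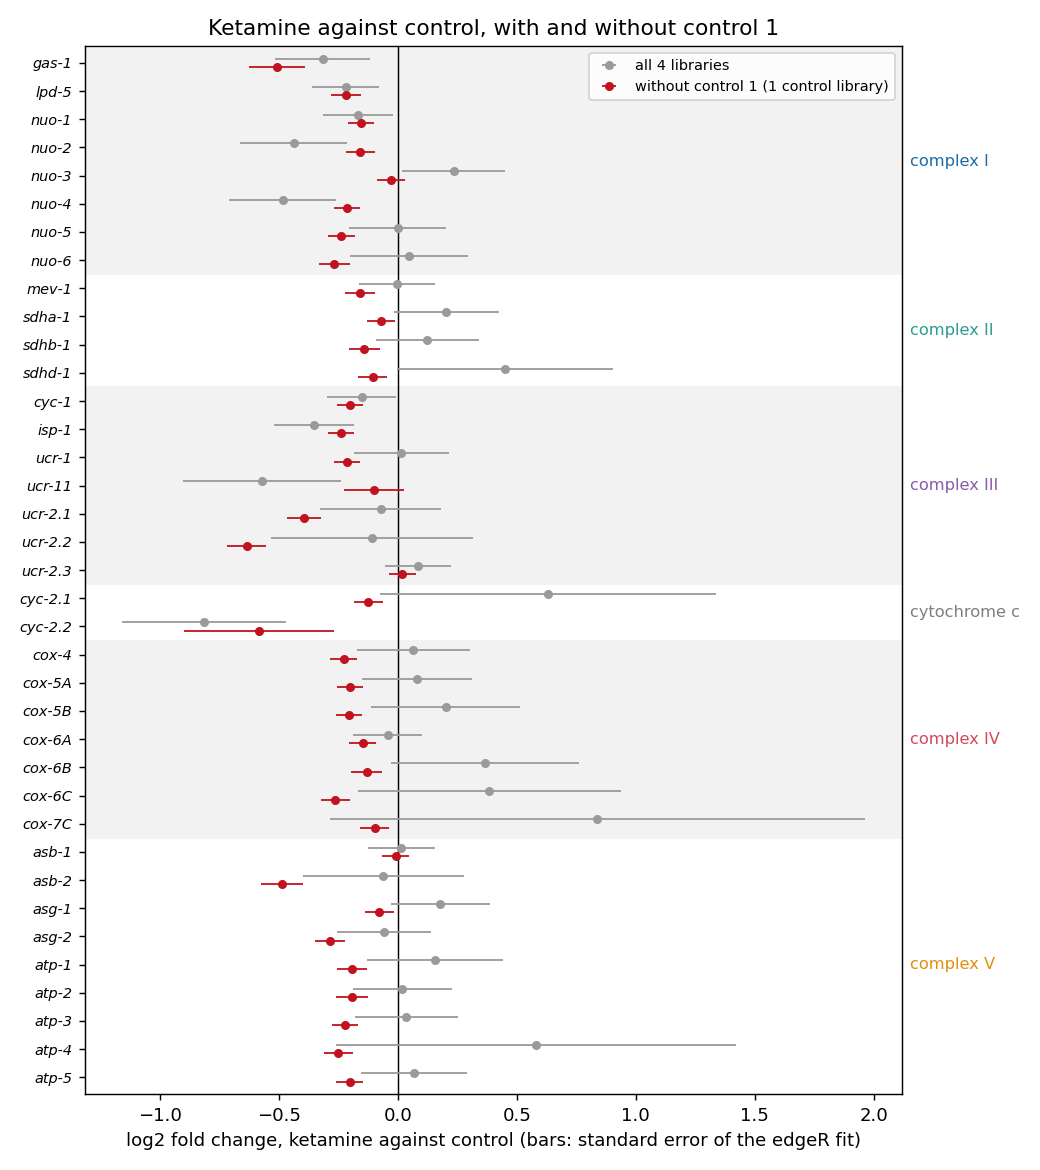
Log2 fold change of ketamine against control for each gene, from the fit with all 4 libraries (grey) and from the fit without control 1 (red). Bars are 1 standard error, derived from the F statistic of the edgeR test. Grey points scatter from -0.82 to 0.84 with wide bars, whereas all red points but ucr-2.3 lie below 0, the lowest being ucr-2.2 at -0.64.

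Levels of the chain's genes. Per length, the most abundant transcripts were those of the catalytic head of the ATP synthase. The deposited FPKM of atp-2, the beta subunit, was 1105, 1449.6, 1271 and 1318 in control 1, control 2, ketamine 1 and ketamine 2, and that of atp-1, the alpha subunit, was 741, 1233, 1106 and 1096. The lowest was cyc-2.2, with a mean of 8.80 FPKM over the 4 libraries. The median of the genes' mean FPKM was 153 in complex I, 147 in complex II and 132 in complex III, against 365 in complex IV and 284 in complex V. Over all 37 genes it was 227, and over all genes tested 7.64. Summed over the members, CPM were 10407 and 14523 in the controls and 12851 and 12965 in the ketamine libraries, so that the 2 ketamine libraries again lay between the controls.

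**Figure D3:**
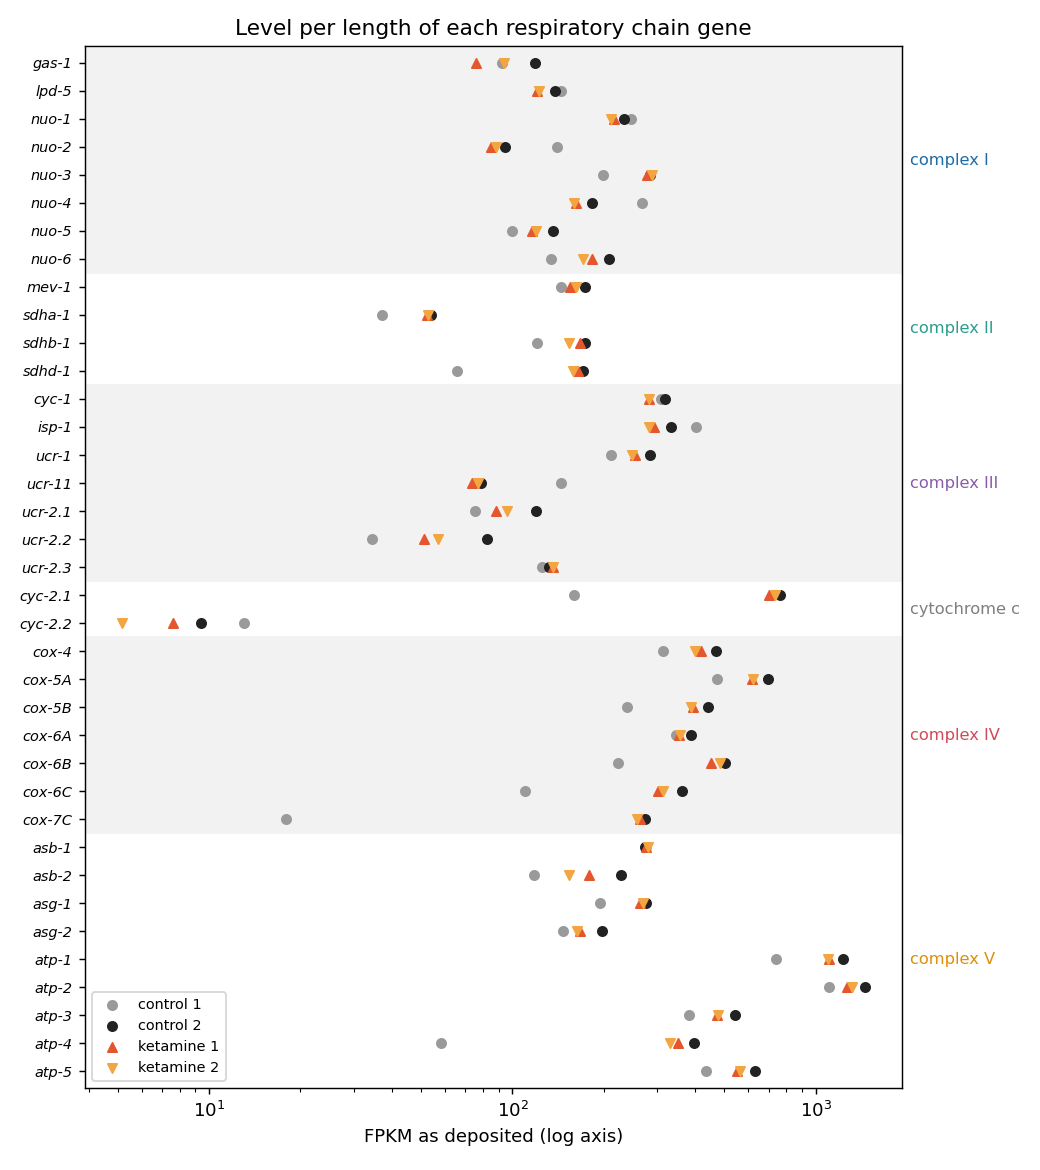
Deposited FPKM of each gene in each library on a log axis, grouped by complex, with circles for the controls and triangles for ketamine. Complex IV and V genes lie mostly further right than those of complexes I to III, and cyc-2.2 lies furthest left, with control 1 (grey) left of the other libraries in most rows of complexes IV and V.

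Complex I. The NADH dehydrogenase was the only complex whose median log2 fold change had the same sign against either control, with medians of -0.19 in all 4 libraries, -0.22 without control 1 and -0.16 without control 2. Its genes did not all keep their sign. Without control 1 all 8 were below 0. Without control 2 nuo-3, nuo-5 and nuo-6 were above 0, at 0.52, 0.25 and 0.41, and the other genes below 0. In the fit of all 4 libraries 0 of 8 were lower and 0 higher at an unadjusted p under 0.05 (3.32% and 2.77% of all genes). The lowest log2 fold change over 4 libraries was that of nuo-4, an accessory subunit. Its CPM were 441 and 303 in controls 1 and 2, and 268 and 264 in ketamine libraries 1 and 2. Both ketamine values were below both controls, with control 1 well above control 2, and the log2 fold change was -0.48 ± 0.22 (SE) with all libraries and -0.21 ± 0.054 without control 1. For nuo-2, a core subunit of the arm that carries the electrons, CPM were 214 and 145 in the controls and 131 and 135 with ketamine. This gene showed the same order, and its log2 fold change went from -0.44 to -0.16 when control 1 was left out.

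The flavoprotein subunit nuo-1, where NADH binds, had the most even levels of the complex. Its CPM were 399 and 378 in the controls and 349 and 342 with ketamine, log2 fold changes of -0.17 with and -0.16 without control 1. The accessory subunit lpd-5 was alike in this, with 105, 101, 87.6 and 89.0 CPM in the same order and -0.22 in both fits. In nuo-1 and lpd-5 the groups did not overlap and the controls lay within 0.08 log2 units of each other. Their adjusted p values were nevertheless 0.751 and 0.748 in the edgeR fit of all libraries, and 0.223 and 0.161 without control 1.

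The core subunit gas-1 was named for mutants that are hypersensitive to volatile anaesthetics. It lies on chromosome X from 15586813 to 15590397 (WBcel235). Its CPM were 156 and 199 in the controls and 127 and 157 with ketamine, so ketamine 2 lay just above control 1 and the groups overlapped. The log2 fold change was -0.32 ± 0.20 (SE) with all libraries and, without control 1, -0.51 ± 0.12, the lowest of the complex in that fit (edgeR adjusted p = 0.0884). The 2 ketamine libraries differed more for gas-1 than for any other member of this complex.

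The 3 remaining genes of complex I were low in control 1. The accessory subunit nuo-3 had 172 and 246 CPM in the controls and 241 and 250.1 with ketamine. It had the highest log2 fold change of the complex over all libraries, 0.23 ± 0.22 (SE), with -0.03 without control 1 and 0.52 without control 2. The large iron-sulphur core subunit nuo-5 had 298, 407, 347 and 357 CPM, and the accessory subunit nuo-6 88.6, 139, 122 and 113 CPM, in the order control 1, control 2, ketamine 1, ketamine 2. Both genes lay between the controls in both ketamine libraries. Their log2 fold changes turned from -0.00 and 0.05 with all libraries to -0.24 and -0.27 without control 1, and were 0.25 and 0.41 without control 2.

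Complex II. The 4 succinate dehydrogenase genes differed least from control 2, with a median of -0.12 without control 1 against 0.16 with all 4 libraries. Without control 1, 1 of 4 (mev-1) was lower at an unadjusted p under 0.05 (9.23% of all genes), with all libraries 0 of 4, and without control 2, 3 of 4 were higher (27.2%). The membrane anchor mev-1, in which a mutation causes sensitivity to oxidative stress, had 109 and 132 CPM in the controls and 118 and 123 with ketamine. Its ketamine values lay between the controls, and its log2 fold change was -0.00 with all libraries, the lowest of the complex, and -0.16 without control 1. The small anchor subunit sdhd-1 had 46.4 and 121 CPM in the controls and 116 and 112 with ketamine. Control 1 alone was low here, which made 0.45 ± 0.45 (SE) the highest log2 fold change of the complex, while without control 1 it was -0.11. For the flavoprotein sdha-1 (86.0, 126, 122 and 122 CPM) and the iron-sulphur subunit sdhb-1 (144, 207, 199 and 184 CPM, in the same order) the ketamine libraries were likewise nearer to control 2. Their log2 fold changes were 0.20 and 0.12 with all libraries and -0.07 and -0.14 without control 1.

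Complex III. The cytochrome bc1 complex had a median of -0.11 with all 4 libraries, -0.21 without control 1 and 0.13 without control 2. Without control 1, 5 of 7 genes were lower at an unadjusted p under 0.05 (9.23% of all genes), and with all libraries 0 of 7. The gene with the greatest fall against control 2 was ucr-2.2, 1 of 3 paralogs of the same core subunit, at chromosome X 15173902 to 15178126. Its CPM were 49.3 and 118.6 in the controls and 73.6 and 81.9 with ketamine. Both ketamine values lay between the controls, which differed from each other more than from either ketamine library on the log2 scale. The log2 fold change was -0.11 ± 0.42 (SE) with all libraries, -0.64 ± 0.083 without control 1 (edgeR adjusted p = 0.0127) and 0.66 ± 0.095 without control 2 (edgeR adjusted p = 0.00190). Its paralog ucr-2.1, at chromosome X 12018427 to 12021212, had 109 and 174 CPM in the controls and 129 and 140.3 with ketamine. It followed the same order, with log2 fold changes of -0.07, -0.40 (edgeR adjusted p = 0.0423) and 0.31 in the same 3 fits. The third paralog, ucr-2.3 on chromosome III, had 177, 187, 193 and 193 CPM, with log2 fold changes of 0.09 ± 0.14 (SE) with all libraries, the highest of the complex, and 0.02 without control 1. Its 4 libraries lay within a narrow range.

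Per length, ucr-2.2 stood at 0.457 of ucr-2.1 in control 1, 0.691 in control 2, and 0.579 and 0.592 in the ketamine libraries. The ratio of ucr-2.3 to ucr-2.1 was 1.66 and 1.11 in the controls and 1.54 and 1.41 with ketamine. Thus in both ratios ketamine lay between the controls. The gene ucr-2.2 overlaps pkhm-2 on the opposite strand over 31 bases. Counts of pkhm-2 were 3138, 3847, 2531 and 3147 in control 1, control 2, ketamine 1 and ketamine 2. The gene ucr-2.2 also overlaps col-41 on the opposite strand over 1443 bases. This collagen gene had 6, 30, 160 and 57 counts in controls 1 and 2 and ketamine 1 and 2, few beside the counts of ucr-2.2, and whether reads were assigned by strand is not given in the sources used here. Reads shared among the paralogs could also have been split by the authors' counting.

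The other complex III genes include its redox subunits. The Rieske iron-sulphur protein isp-1, whose mutants are long-lived, had 493 and 409 CPM in the controls and 359 and 348 with ketamine. Both ketamine libraries were below both controls, with log2 fold changes of -0.35 ± 0.17 (SE) in all libraries and -0.24 ± 0.056 without control 1 (edgeR adjusted p = 0.748 and 0.0909). Cytochrome c1, cyc-1, had 452, 465, 411 and 414 CPM. In cyc-1 the controls lay close together and the ketamine libraries below them, at log2 fold changes of -0.15 with and -0.20 without control 1. The core subunit ucr-1 had 364 and 492 CPM in the controls and 437 and 427 with ketamine, at 0.01 and -0.21. The short gene ucr-11 had 41.4 CPM in control 1 and 22.8, 21.1 and 22.1 in control 2 and the ketamine libraries. Its log2 fold change of -0.57, the lowest of the complex in all libraries, came with a high control 1, and without that library it was -0.10 ± 0.13.

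Cytochrome c. The mobile electron carrier is encoded by a major and a minor gene here. The major gene cyc-2.1, at chromosome IV 4747901 to 4748449, had 92.5 and 446 CPM in the controls and 407 and 426 with ketamine. Control 1 alone was low, so that the log2 fold change was 0.63 ± 0.71 (SE) with all libraries but -0.12 ± 0.061 without control 1. The minor gene cyc-2.2 had 5.9 and 4.2 CPM in the controls and 3.4 and 2.3 with ketamine. These rest on few reads, and although the groups did not overlap, its log2 fold change of -0.82 ± 0.34 (SE) had an edgeR adjusted p of 0.748, and -0.58 ± 0.32 without control 1 one of 0.392. The FPKM ratio of cyc-2.1 to cyc-2.2 was 12.2 and 81.3 in the controls and 92.2 and 142 with ketamine. The whole of cyc-2.2 lies within 543 bases that overlap cubn-1 on the opposite strand, a gene with between 243 and 593 counts per library, so its few reads are of uncertain origin.

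Complex IV. In cytochrome c oxidase, the complex that reduces oxygen, the order was the same for all 7 genes. Control 1 was lowest, control 2 highest and both ketamine libraries were in between. The smallest of these transcripts showed it most. For cox-7C, at chromosome I 9773170 to 9774016, CPM were 7.1 and 109 in the controls and 105 and 103 with ketamine. Against control 1 alone ketamine was 14.6-fold higher, whereas without control 1 the log2 fold change was -0.10 ± 0.062 (SE). With all libraries it was 0.84 ± 1.12, the highest of all members, with a standard error that exceeded it. For cox-6C, CPM were 44.1 and 146 in the controls and 122 and 126 with ketamine, with log2 fold changes of 0.38 in all libraries and -0.26 without control 1, the lowest of the complex in that fit.

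Of the other complex IV genes, cox-6B had 143, 321, 288 and 309 CPM and cox-5B 173, 321, 286 and 282 CPM in control 1, control 2, ketamine 1 and ketamine 2. Each was near 2-fold lower in control 1 than in control 2, and their log2 fold changes were 0.37 and 0.20 with all libraries and -0.13 and -0.20 without control 1. The gene cox-5A had 352 and 522 CPM in the controls and 459 and 465 with ketamine, and cox-4 had 271 and 409 and then 363 and 348. These were at 0.08 and 0.07 with all libraries and at -0.20 and -0.23 without control 1. The controls were closest for cox-6A, with 192 and 215 CPM against 197 and 199 with ketamine, and this gene had the lowest log2 fold change of the complex in all libraries (-0.04). Without control 1, 5 of 7 genes were lower at an unadjusted p under 0.05 (cox-4, cox-5A, cox-5B, cox-6A and cox-6C, against 9.23% of all genes), between -0.15 and -0.26. When both controls were kept, 0 of 7 were lower or higher, and without control 2, 6 of 7 were higher (27.2%). The median of the complex was 0.20, -0.20 and 0.72 with all libraries, without control 1 and without control 2.

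Complex V. The ATP synthase genes behaved like those of complex IV, apart from asb-1. Without control 1, 7 of 9 were lower at an unadjusted p under 0.05 (9.23% of all genes), with a median log2 fold change of -0.20. With all 4 libraries 0 of 9 were lower or higher and the median was 0.03, with 7 of 9 above 0, and without control 2, 8 of 9 were higher (27.2%) at a median of 0.36. The abundant head subunits atp-1 and atp-2 had 1518 and 2172 CPM in control 1 and 2535 and 2859 in control 2. With ketamine, atp-1 had 2267 and 2251 CPM and atp-2 2501 and 2596. In both genes ketamine lay between the controls, at -0.19 without control 1 and at 0.16 and 0.02 with it. The stalk gene atp-3 (409.7, 580.5, 505 and 509 CPM) and the stator gene atp-5 (410.2, 594, 520.3 and 533 CPM) had nearly the same pattern, at -0.22 and -0.20 without control 1 and at 0.03 and 0.07 with all libraries.

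The coupling factor gene atp-4, at chromosome V 6426246 to 6427282, was low in control 1 as cox-7C and cyc-2.1 were. Its CPM were 36.5 and 251 in the controls and 221 and 209 with ketamine. The log2 fold change was 0.58 ± 0.84 (SE) with all libraries, the highest of the complex, and -0.25 ± 0.060 without control 1 (edgeR adjusted p = 0.0983).

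The paralogs of subunit b differed from each other. The gene asb-1, a germline isoform, had 320.4 and 319 CPM in the controls and 319.9 and 326 with ketamine. These 4 values were nearly equal, with log2 fold changes of 0.02 with and -0.0090 without control 1. The gene asb-2, the isoform of somatic tissues, at chromosome X 4469743 to 4471480, had 144 and 280 CPM in the controls and 219 and 188 with ketamine. Both ketamine libraries lay between widely separated controls, with log2 fold changes of -0.06 ± 0.34 (SE) with all libraries, the lowest of the complex, and -0.49 ± 0.089 without control 1 (edgeR adjusted p = 0.0427). The FPKM ratio of asb-2 to asb-1 was 0.429 and 0.835 in the controls and 0.651 and 0.548 with ketamine. For the subunit g paralogs, asg-1 had 94.2, 134, 127 and 131 CPM and asg-2 had 77.5, 105, 88.4 and 86.8 CPM, in the order control 1, control 2, ketamine 1, ketamine 2. Without control 1 asg-2 was at -0.28 and asg-1 at -0.08, against -0.06 and 0.18 with all libraries, and their FPKM ratio went from 0.751 and 0.716 in the controls to 0.635 and 0.606 with ketamine.

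Differences between the controls by gene length. The genes in which control 1 was lowest had short transcripts, a pattern noticed after the values were seen. Of the 15 members shorter than 750 bases, control 1 was under 50% of control 2 in 6 (40%), against 1 of the 22 longer ones. Among all genes tested the shares were 24.5% and 9.92%. Short members were not uniformly low in control 1, since ucr-11 and cyc-2.2 were higher there than in control 2. Across the 37 members, the difference between the controls correlated with log2 gene length at r = 0.29 (Spearman 0.25), and that between ketamine and control 2 at -0.08 (both coefficients). The part of transcript length in the control difference was not tested.

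**Figure D4:**
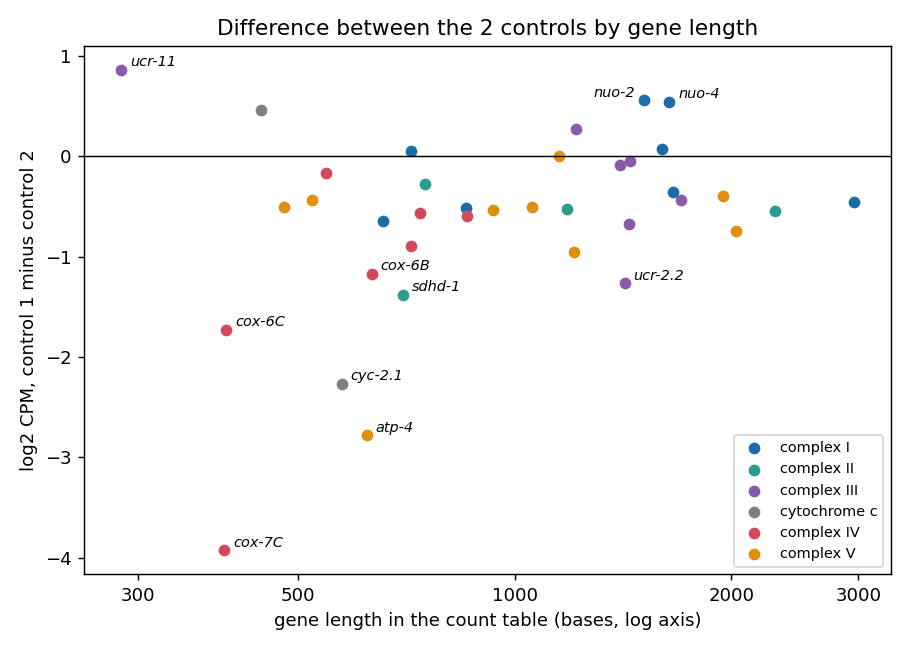
Each point is 1 of the 37 genes, coloured by complex, with its length in bases (log axis) against the log2 CPM of control 1 minus that of control 2. The lowest points (cox-7C, atp-4, cyc-2.1, cox-6C) are short genes, but ucr-11, the shortest, is the highest point, and most genes longer than 750 bases lie between -1 and 0.6.

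Members on chromosome X. All 3 genes that fell at an adjusted p under 0.05 without control 1 are on chromosome X, where 6 of the 37 members lie (gas-1, sdha-1, ucr-2.1, ucr-2.2, asb-2 and asg-2). This too was noticed after the values were seen, and it is given as a description. Their median log2 fold change without control 1 was -0.44, against -0.19 for the 31 members on other chromosomes. For all tested genes it was -0.09 on chromosome X and 0.01 on the other nuclear chromosomes. With all 4 libraries the medians were -0.07 for the X-linked members and 0.05 for the others. Without control 2 they were 0.40 and 0.31, so the direction for the X-linked members depended on the control used. For all tested genes that fit gave 0.10 on chromosome X and -0.01 on the other nuclear chromosomes.

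Subunits encoded by the mitochondrial genome. Control 1 was high in mitochondrial transcripts while low in most of the nuclear genes. Of 11 tested genes of the mitochondrial genome, 3 were lower with ketamine at an unadjusted p under 0.05 in all 4 libraries and 9 without control 1, against 3.32% and 9.23% of all genes, and 0 were higher in either fit. Their median log2 fold change was -1.12 with all libraries, -0.30 without control 1 and -1.65 without control 2. All 11 were below 0 in each of these fits. In each of them both ketamine libraries lay below both controls, as in 20.6% of all genes. The lowest over all libraries was ND6, with 1348 CPM in control 1 and 26.6, 23.5 and 18.5 in control 2 and the ketamine libraries, a log2 fold change of -5.03 (edgeR adjusted p = 0.748), and the highest was MTCE.21 at -0.73. The summed CPM of the 37 nuclear members divided by that of the mitochondrial genes was 0.318 and 1.201 in the controls and 1.35 and 1.24 with ketamine. Apart from control 1, this ratio lay between 1.201 and 1.35, and both ketamine libraries were above control 2. The libraries were made by selecting mRNA, and the part of that selection in the mitochondrial values was not tested.

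Other genes of respiration. All of the 28 further subunits belong to complex I except sdha-2, a gene of complex II. Without control 1, 27 of the 28 had a log2 fold change below 0 (8017 of all 15793 genes tested), with a median of -0.15. Without control 2 the median was -0.01. With all 4 libraries the median was -0.06. In that fit 0 were lower or higher at an unadjusted p under 0.05 (3.32% and 2.77% of all genes). Without control 1 ndus-8, nduv-2 and nduf-7 were at -0.23, -0.17 and -0.25. The extremes over all libraries were ndab-2 (-0.58, and -0.05 without control 1) and ndua-7 (0.63 and -0.15). The citric acid cycle and pyruvate dehydrogenase, which supply NADH and succinate, had 19 of 20 genes below 0 without control 1, at a median of -0.14. With all 4 libraries 0 of 20 were lower or higher at an unadjusted p under 0.05 (3.32% and 2.77% of all genes). The median of that fit was 0.05, with 13 of 20 above 0, and without control 2 it was 0.27. Here idhg-2, of isocitrate dehydrogenase, was lowest over all libraries (-0.47, and -0.30 without control 1) and dld-1, the lipoamide dehydrogenase, highest (0.24 and -0.17). Both lists had medians below 0, as the respiratory chain genes had, when control 1 was left out.

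Assembly factors and ubiquinone synthesis had medians near 0 without control 1. Of 12 assembly factors, 6 were below 0 without control 1 (8017 of all 15793 genes tested), with a median of -0.00 (0.04 with all libraries). Their extremes over all libraries were cox-17, a copper chaperone of complex IV (-1.26, and -0.54 without control 1, on few counts), and sft-1 (0.64 and 0.13). In ubiquinone synthesis 4 of 8 were below 0 without control 1, with a median of 0.02 (-0.04 with all libraries). There clk-1, a hydroxylase of the pathway, had -0.42 over all libraries and 0.04 without control 1, and coq-3, a methyltransferase, 0.24 and 0.16. Among 8 carriers and ATPase inhibitors, the inhibitor mai-1 had -0.38 over all libraries and -0.45 without control 1, and mai-2 had 0.11 and -0.16. The carrier ant-1.2 had 14, 1, 10 and 8 counts in the 4 libraries, too few to read a fold from. The median of that list was -0.12 without control 1, with 7 of 8 genes below 0, and 0.02 with all libraries. In these 3 lists 0 genes were lower or higher at an unadjusted p under 0.05 with all libraries (3.32% and 2.77% of all genes).

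**Figure D5:**
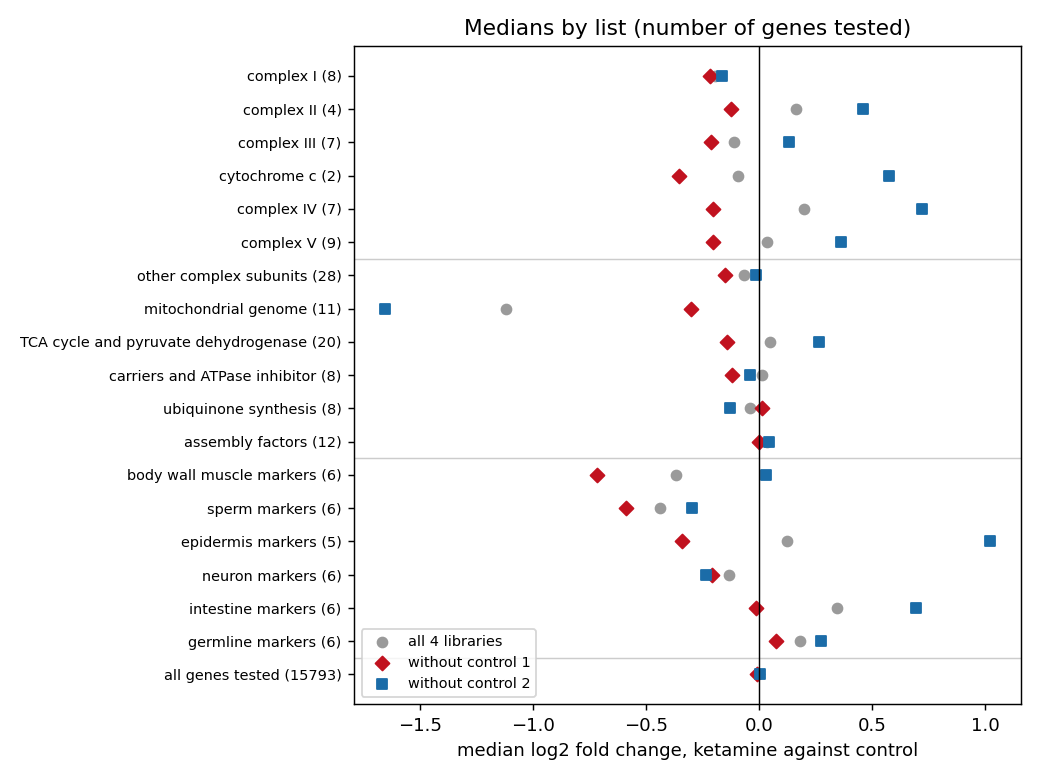
Median log2 fold change of each list in the fit with all 4 libraries (circles), without control 1 (diamonds) and without control 2 (squares), with the number of genes tested in parentheses. Without control 1 complexes I to V lie between -0.12 and -0.22 and all genes at -0.01, whereas without control 2 complexes II to V lie above 0 and complex I at -0.16.

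Tissue markers beside these values. In RNA of whole animals, fewer cells of a tissue and less RNA per cell cannot be told apart. All tissue lists were detected and none of the markers found was at 0 in any group. A further listed epidermis marker, bus-8, was not found among the rows. The 6 body wall muscle markers, among them the myosin heavy chains unc-54 and myo-3, had summed CPM of 2941 and 5428 in the controls and 3324 and 3252 with ketamine. Without control 1 all 6 had a log2 fold change below 0 (8017 of all 15793 genes tested), with a median of -0.71. Without control 2 their median was 0.03. With all libraries the median was -0.36, and 0 of 6 were lower at an unadjusted p under 0.05 (3.32% of all genes). Sperm markers were below 0 in 6 of 6 without control 1 (median -0.59, summed CPM 55.0, 64.2, 46.0 and 35.8). With all libraries 2 of 6 were lower at an unadjusted p under 0.05 (3.32% of all genes, median -0.44). Germline markers were below 0 in 3 of 6 without control 1 (median 0.08, summed CPM 3815, 4424, 4747 and 4677). In the same fit intestine markers were below 0 in 3 of 6, with a median of -0.01 and summed CPM of 25436, 52942, 51382 and 49714. Neuron markers were below 0 in 5 of 6 (median -0.21) and epidermis markers in 3 of 5 (median -0.34). With all libraries the medians were 0.18 for germline, 0.35 for intestine, -0.13 for neuron and 0.12 for epidermis markers. In these 4 lists 0 were lower or higher at an unadjusted p under 0.05 (3.32% and 2.77% of all genes). Without control 2 the medians were -0.29 for sperm, 0.27 for germline, 0.69 for intestine, -0.23 for neuron and 1.02 for epidermis markers. The part of these tissue differences in the values of the respiratory chain genes was not tested.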

How the data were processed

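RNA of whole animals was sequenced from stranded mRNA libraries, 2 per group. Per the labels and the study's methods, alignment to WBcel235 by the authors used HISAT2 2.0.5, followed by StringTie 1.3.3b and counting with featureCounts 1.5.0-p3, whose strand and multi-mapping settings are not given in the sources used here. The deposited counts per gene were whole and not normalized. The deposited FPKM are these counts per gene length and per library constant, and served for levels per length only. Of 46643 rows, 46180 were matched to 1 WormBase gene through the WBcel235 annotation. Columns named for the wild type were taken as controls by their number.

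Counts were tested with edgeR 4.0.16 in R 4.3.3 (TMM, quasi-likelihood, at least 10 counts in at least 2 libraries), fitted on all 15793 genes, with Benjamini-Hochberg adjustment. Calls required an adjusted p under 0.05 and 2-fold. CPM were scaled by the TMM factors (0.966 to 1.06). Members and gene lists were chosen with earlier results of these data known. Genes named were the members, with the highest and lowest of each complex, paralogs and those at an unadjusted p under 0.05 in full, and the extremes of each other list. Alternatives were DESeq2 1.42.0, limma 3.58.1 on log2(FPKM + 1) and log2(FPKM + 0.1) of the deposited FPKM, RLE factors, library totals, other count filters, leaving out abundant or mitochondrial genes, a replicate block, and leaving out each library.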

Additional observations from a re-analysis of the deposited data

How the results depend on the processing

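With all 4 libraries, 0 members were called lower and 0 higher under every alternative that kept both controls. At an unadjusted p under 0.05 the counts were also 0, except that without the count filter 2 were lower (nuo-4 and cyc-2.2). Leaving out each library in turn gave between 0 and 1 members called lower and between 0 and 6 called higher, and, at an unadjusted p under 0.05, between 0 and 25 lower and between 0 and 24 higher. The extremes came from leaving out a control. Without control 1, alternatives added after seeing the data gave 24 lower members with RLE factors, 19 with library totals, 25 without the mitochondrial genome, 24 without the 20 most abundant genes (which removes atp-2) and 20 with DESeq2, and 0 higher in each. The change of 12 single genes passed the threshold only with control 2 left out. Other results kept their direction and side of the threshold unless listed here, and the cause of the shifts was not tested. The limits are 2 libraries per group, a control that stands apart, and, where 1 control is left, a spread taken from the ketamine libraries alone. Depth limits cyc-2.2, cox-17 and ant-1.2, whose upper value below rests on 1 count in the lone control.

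The replicate numbers do not pair the samples by the labels. Across genes, the deviations of same-numbered libraries from their group means correlated at 0.0814. With 2 libraries per group this value is the same for both numbers by construction. With a replicate block, 0 members were called, the median log2 fold change of all members was 0.032, of complex III -0.035 and of complex V 0.057, and nuo-5 (0.016), mev-1 (0.0029), ucr-2.2 (0.023) and asb-2 (0.012) changed sign.

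On log2(FPKM + 1) and log2(FPKM + 0.1) with limma, the medians were -0.035 and -0.035 for complex III and 0.057 and 0.057 for complex V. The same pair of pseudocounts gave nuo-5 0.016 and 0.017, mev-1 0.0032 and 0.0033, ucr-2.2 0.021 and 0.023, and asb-2 0.012 and 0.013. With at least 50 counts, with library totals and without a count filter, in this order, the complex V median was 0.012, 0.0096 and 0.0059, ucr-1 -0.0093, -0.013 and -0.015, atp-2 -0.0043, -0.0091 and -0.010, and asb-1 -0.0067, -0.022 and -0.013. The log2 fold change of nuo-5 was 0.00089 with RLE factors, and that of ucr-1 -0.00020 without the mitochondrial genome. With control 1 left out, library totals gave medians of -0.064 in complex II, -0.154 in complex III, -0.142 in complex IV and -0.142 in complex V, and complex III had -0.206 with RLE factors and -0.208 with DESeq2.

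Leaving out each library in turn, the median ranged from -0.12 to 0.46 in complex II, -0.21 to 0.13 in complex III, -0.35 to 0.58 for cytochrome c, -0.20 to 0.72 in complex IV and -0.20 to 0.36 in complex V. In complexes I and II the log2 fold change ranged from -0.028 to 0.52 for nuo-3, -0.24 to 0.25 for nuo-5, -0.27 to 0.41 for nuo-6, -0.16 to 0.14 for mev-1, -0.071 to 0.51 for sdha-1, -0.14 to 0.41 for sdhb-1 and -0.11 to 1.304 for sdhd-1. In complex III and cytochrome c it ranged from -0.21 to 0.25 for ucr-1, -0.40 to 0.31 for ucr-2.1, -0.64 to 0.66 for ucr-2.2 and -0.12 to 2.18 for cyc-2.1. In complex IV it ranged from -0.23 to 0.40 for cox-4, -0.20 to 0.40 for cox-5A, -0.20 to 0.72 for cox-5B, -0.15 to 0.043 for cox-6A, -0.13 to 1.07 for cox-6B, -0.26 to 1.497 for cox-6C and -0.10 to 3.87 for cox-7C. In complex V it ranged from -0.19 to 0.58 for atp-1, -0.19 to 0.23 for atp-2, -0.22 to 0.31 for atp-3, -0.25 to 2.56 for atp-4, -0.20 to 0.36 for atp-5, -0.0090 to 0.030 for asb-1, -0.49 to 0.50 for asb-2, -0.078 to 0.46 for asg-1 and -0.28 to 0.18 for asg-2. Among the other lists it ranged from -0.17 to 0.78 for dld-1, -0.083 to 3.13 for ant-1.2, -0.15 to 2.35 for ndua-7 and -0.78 to 0.043 for clk-1. The lower end came from leaving out control 1 for all these but ant-1.2 and clk-1, where it came from leaving out control 2, as did the upper end for the others except asb-1 (ketamine 1 left out).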
